A study of Arabidopsis thaliana with 17 samples.

Results

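The 10 genes described here are WUSCHEL-related homeobox genes of Arabidopsis thaliana, WUS and the WOX genes numbered 1 to 5, 8, 9, 11 and 12, taken by name from the 27444 nuclear protein-coding genes of the annotation. Members with an embryonic role (WOX2, WOX8 and WOX9) were set beside the 7 that act in meristems and organs. For each gene the body and 1 kb on either side were read in 5 lists of H3K27me3 domains and in 1 table of parental read counts. The 5 remaining genes of the family (WOX6, WOX7, WOX10, WOX13 and WOX14) serve as context.

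WOX proteins are plant homeodomain transcription factors. WUS, WOX5 and WOX4 hold stem cells in the shoot, the root and the vascular cambium, and WOX2, WOX8 and WOX9 pattern the early embryo. H3K27me3, trimethylation of lysine 27 on histone H3, is set by Polycomb repressive complex 2 and in plants often lies over whole genes of developmental regulators outside the cells that use them. The endosperm is the seed tissue that feeds the embryo, and it carries more maternal than paternal genomes.

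The mark was mapped by CUT&RUN, in which a nuclease tethered to an antibody cuts out the chromatin the antibody has bound. Endosperm nuclei with a DNA content of 6N were sorted from F1 seeds, with Col as the mother and Ler as the father, 4 days after pollination. They were used unfixed or after fixation in formaldehyde, with 2 H3K27me3 libraries of each kind. Leaf nuclei of 2N, 4N and 8N content came from Col plants 3 weeks old and gave 1 H3K27me3 library. These 5 libraries and the endosperm H3 libraries are used here, out of 17 samples. The labels do not say whether same-treatment libraries came from separate plants, so the spread between them may be technical.

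The lists held 5878 to 8403 domains, and unfixed replicate 2 stood apart from the other endosperm lists, with 12.7 Mb covered against 19.8 to 21.3 Mb and a median domain of 1200 bp against 1800 to 2250 bp. Results that rest on it are given with and without it. The files hold no expression, so the tissue labels could be set only beside the mark on marker genes. Of 5 endosperm genes none was marked in endosperm and 3 were marked in leaf, where marked means that domains covered at least 50% of the gene body, in endosperm in all 4 lists. Of 3 photosynthesis genes none was marked in leaf, and RBCS1A among them was covered over 77.3% in fixed replicate 1 and unfixed replicate 2 of endosperm. Of 4 seed coat genes 1 was marked in endosperm and 2 in leaf, and none of 3 reference genes was marked in either tissue. How much the sorted nuclei held of other cell types was not tested.

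All 10 genes were marked in leaf, and domains covered the whole body of 9 of them. Over all protein-coding genes, 20.3% were marked in leaf and 13.4% were covered over 100% of the body. In endosperm 6 of the 10 genes were marked in all 4 lists, where 11.9% of all genes were. Without unfixed replicate 2 the count was 9 of 10, against 15.4% of all genes. At least 1 endosperm list marked 9 of the 10, against 27.9% of all genes. At a cover of at least 80% in all 4 endosperm lists, the 6 became 3 (WOX1, WOX4 and WOX9). The gene missing from every one of these endosperm counts was WOX8. Both tissues marked 6 of the 10, against 9.58% of all genes. Each single endosperm list marked 9, 9, 9 and 6 of the 10 (fixed replicates 1 and 2, then unfixed replicates 1 and 2), against 20.4%, 20.2%, 21.6% and 16.0% of all genes.

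**Figure D1:**
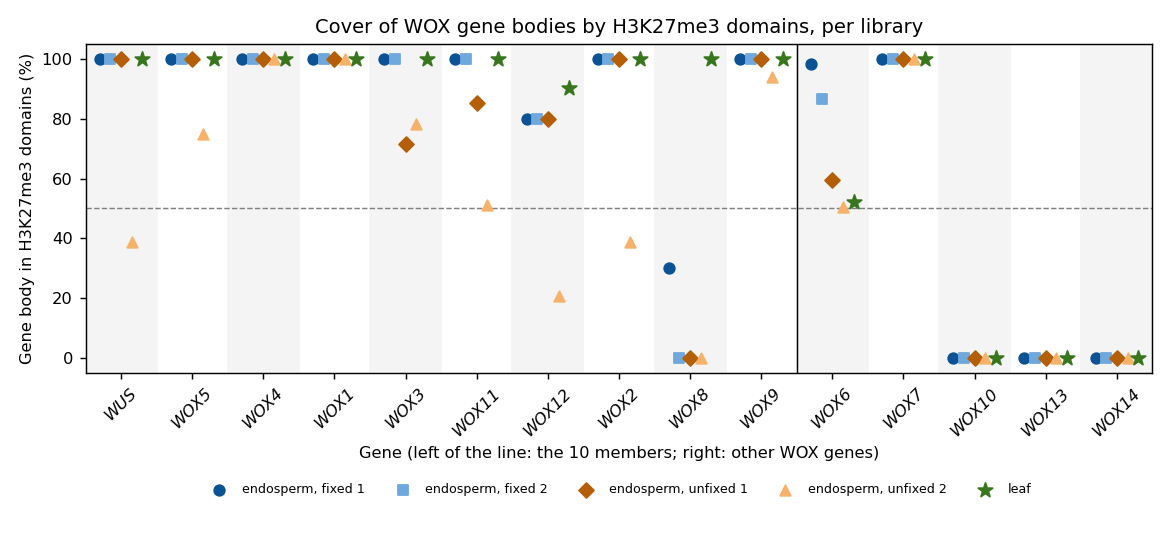
Share of each gene body that lies in H3K27me3 domains (y axis, percent), for the 10 genes (left of the vertical line) and 5 other WOX genes (right), with 1 point per library and a dashed line at 50%. Leaf stars sit at 100% for 9 of the 10 genes and at 90.3% for WOX12, while WOX8 is at 30.0% or 0% in endosperm.

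Among the stem cell regulators, WUS, which keeps the shoot stem cells in the organizing centre, was covered over 100% of its body in both fixed lists and in unfixed replicate 1, over 38.6% in unfixed replicate 2 and over 100% in leaf. Its endosperm mean was 84.7 ± 30.7% (SD, n = 4, as for each endosperm mean of cover below). WOX5, which does the same work in the quiescent centre of the root, was covered over 100, 100, 100 and 75.02% in endosperm, in the order of lists given above, and over 100% in leaf. WOX4, a promoter of cambium activity, was covered over 100% in every list. These genes therefore lay in domains in both tissues, and the single low value was that of WUS in unfixed replicate 2. Such a drop, from marked in the other 3 endosperm lists to under 50% in unfixed replicate 2, was seen in 3 of 9 WOX genes (WUS, WOX2 and WOX12) and in 22.9% of 4233 genes over the genome.

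The organ genes were covered in a like manner. WOX1, which with WOX3 promotes outgrowth of the leaf blade, was covered over 100% of its body and of both 1 kb flanks in all 5 lists. WOX3, also called PRESSED FLOWER, was covered over 100 and 100% in the fixed lists, 71.6 and 78.2% in the unfixed lists and 100% in leaf. WOX11, which acts at the start of adventitious roots, stood at 100 and 100% in the fixed lists, 85.3 and 51.04% in the unfixed lists and 100% in leaf. Its closest relative, WOX12, which acts with it, stood at 79.99, 79.99, 79.99 and 20.7% in endosperm and 90.3% in leaf. WOX12 had the lowest endosperm mean of the 7, at 65.2 ± 29.6%, and WOX1 and WOX4 the highest, at 100%.

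The 3 embryo genes had endosperm means from 7.51 to 98.5%, a wider range than the 65.2 to 100% of the other 7. WOX2, which patterns the apical cell lineage of the embryo, was covered over 100, 100, 100 and 38.7% in endosperm and 100% in leaf, which is nearly the series of values of WUS. WOX9, which acts in the basal lineage and in later meristem growth, was covered over 100, 100, 100 and 94.0% in endosperm and 100% in leaf. WOX8, which is expressed in the zygote and the basal lineage and overlaps with WOX9 in function, was covered over 30.0, 0, 0 and 0% in endosperm and 100% in leaf. WOX8 was the only one of the 10 that was marked in leaf but in none of the endosperm lists. Over all genes this held for 2.94%. All 10 were marked in leaf, so the closer comparison is with the 5583 genes marked in leaf. Of those, 807 were marked in no endosperm list. The case of WOX8 therefore does not set the 10 genes apart from other genes marked in leaf. The median endosperm cover of the 3 embryo genes differed from that of the other 7 by -2.77 points, and with the flanks included in the window by 4.92 points. In 3 of the 4 lists both medians were 100%, so the median can show little. By means the embryo genes were lower in every list, by -20.5, -30.5, -24.3 and -22.0 points (a mean of -24.3 ± 4.40 points, SD over 4 lists). WOX2 and WOX9 stood at 100% in the first 3 lists, so there the lower mean came from WOX8 alone. No test is given because genes are not replicates.

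**Figure D2:**
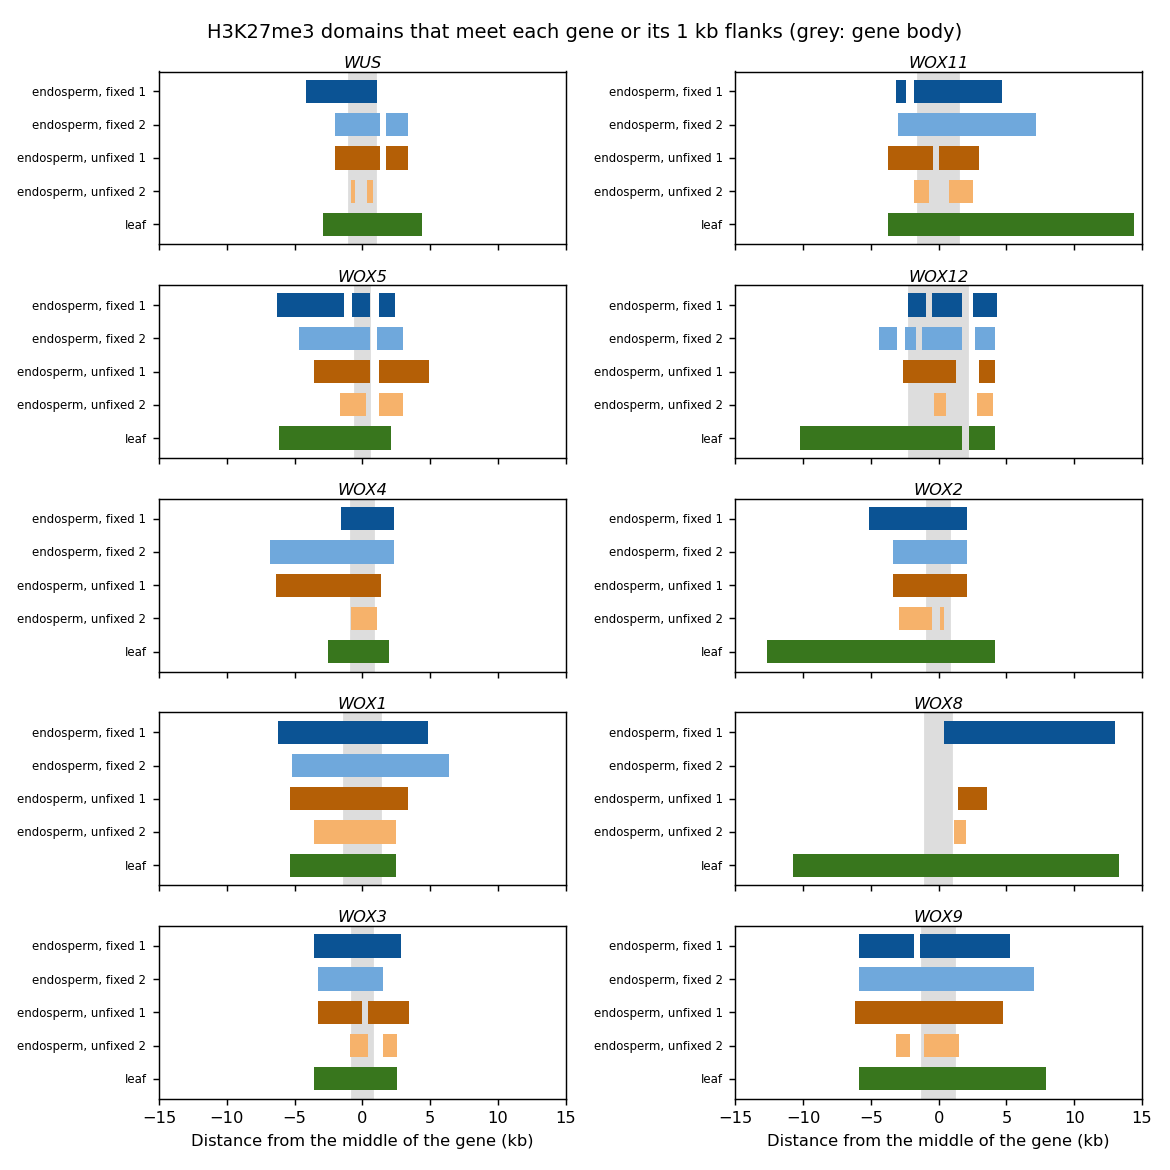
H3K27me3 domains that meet each gene or its 1 kb flanks, by distance from the middle of the gene (x axis, kb, toward higher coordinates to the right), with 1 row per library and the gene body in grey. In leaf and in the endosperm lists other than unfixed replicate 2, domains run past the gene on both sides for most genes. Over the body of WOX8 endosperm domains are missing or, in fixed replicate 1, start inside it.

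In endosperm the bare stretch over WOX8 lay between domains on both sides, in a region that leaf covered in 1 piece. In leaf a single domain of 24000 bp (TAIR10, chromosome 5, 18639151 to 18663150) covered WOX8, RAC2, a small GTPase gene, on the lower-coordinate side, and AT5G45990, AT5G46000 and AT5G46010 on the higher-coordinate side. In endosperm, domains covered 73.1, 65.6, 73.1 and 31.9% of that leaf domain. The domain on the RAC2 side ended at 18647700 in fixed replicate 1, and the next began at 18650251, which leaves a gap of 2550 bp. The gap was 5700 bp in fixed replicate 2, 3750 bp in unfixed replicate 1 and 3900 bp in unfixed replicate 2. All 4 gaps shared the 2550 bp from 18647701 to 18650250, which held 69.96% of the WOX8 body and met no other protein-coding gene. Each endosperm list had 2 to 6 other gaps in the region, the widest of them 2550 bp in fixed replicate 1 and, in unfixed replicate 2, 3600 bp. The lists shared 3 bare stretches within the leaf domain, and the other 2 were 300 and 750 bp wide.

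The genes around WOX8 were covered further than WOX8 in endosperm, though RAC2, AT5G45990 and AT5G46000 each fell under 50% in at least 1 list. RAC2 stood at 81.5, 90.7, 100 and 43.1%, a mean of 78.8%. AT5G45990 stood at 100, 34.7, 82.7 and 22.6%, a mean of 60.0 ± 37.2%. Further on, AT5G46000 stood at 85.0 ± 29.9% and AT5G46010 at 95.3 ± 5.38%, against 7.51 ± 15.02% for WOX8. The lower 1 kb flank of WOX8 was at 0% in all 4 endosperm lists, and its higher flank was at 100, 0, 53.6 and 83.6%. Leaf covered both flanks over 100%. With 1 leaf library, a difference of tissue and a difference between single libraries cannot be told apart.

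In leaf all 18 flanks of the other 9 genes were covered over at least 50%, and in endosperm 4 of 18 were in all 4 lists (12 without unfixed replicate 2). The same shares over all genes were not computed, so these counts do not show a trait particular to the WOX genes. Leaf covered both flanks of every one of the 10 over 100%, except the higher flank of WOX12 at 97.0%. In endosperm, cover of both flanks was 100% in all 4 lists only for WOX1. WOX2 had 100% on its lower flank in every list and 100, 100, 100 and 0% on its higher flank. WOX5 had 85.0 ± 30.0% on the lower and 43.5 ± 7.68% on the higher flank. WUS was at 100, 100, 100 and 0% below and 31.0 ± 28.3% above, so in endosperm the domains over WUS mostly stopped near the higher end of the gene. A further domain followed in every endosperm list. It began at 7811551 in fixed replicate 2 and unfixed replicate 1, at 7811851 in fixed replicate 1 and at 7812001 in unfixed replicate 2.

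The widest domain on WUS was 5250, 3300, 3300 and 450 bp in endosperm and 7350 bp in leaf (chromosome 2, 7806901 to 7814250). That on WOX2 was 7200, 5400, 5400 and 2400 bp in endosperm and 16800 bp in leaf (chromosome 5, 23921551 to 23938350), where it also covered the lipid transfer protein genes LTP3 and LTP4. That on WOX11 was 6450, 10200, 3300 and 1800 bp in endosperm and 18150 bp in leaf (chromosome 3, 886951 to 905100). These 3 domains were wider in leaf than in any endosperm list, as were those of 7 of the 10 genes in all. Of all genes marked in leaf, 60.5% had a wider domain in leaf than in any endosperm list, so the share among the WOX genes was near that of the genome.

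The exceptions were the blade genes and WOX4. The widest domain on WOX1 was 11100, 11550, 8700 and 6000 bp in endosperm and 7800 bp in leaf (chromosome 3, 6156751 to 6164550). For WOX3 the leaf domain of 6150 bp lay within the endosperm range of 1350 to 6450 bp, and for WOX4 that of 4500 bp lay within 1950 to 9150 bp. In 8 of 10 genes the narrowest domain was that of unfixed replicate 2, the list with narrow domains throughout. The exceptions were WOX5, with 1350 bp in fixed replicate 1, and WOX8, on which only fixed replicate 1 had a domain.

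Endosperm domains filled 44.4 ± 25.5% (WOX12) to 98.1 ± 2.72% (WOX1) of the leaf domain on each gene (SD, n = 4). The median over the 10 was 76.2%, against 52.9% over all 5878 leaf domains. WOX8 stood at 60.9 ± 19.7%, above WUS at 57.1 ± 23.2% and WOX12. Thus the leaf domain on WOX8 was filled no less than those on these genes, though the body of WOX8 was nearly bare. These shares include the gene bodies, and shares of the surroundings alone were not computed.

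Within the leaf list, the authors' log2 enrichment of the domain on WOX9 was 2.53 and that on WUS was 2.50, at percentiles 99.2 and 99.1 of the list. The domain on WOX5 lay in the middle of the list, at percentile 54.8, and that on WOX8 at 86.6. In the endosperm lists the domain on WOX1 lay at percentiles 87.6, 97.5, 95.3 and 88.4. These enrichments are the authors' own values per domain and rank domains only within a list.

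The series set fixed against unfixed nuclei. Cover of fixed and unfixed lists did not overlap in 2 of the 10 genes, WOX3 and WOX11, and this held for 17.8% of the 10504 genes with cover in any endosperm list. WOX3 was at 100 ± 0% in fixed and 74.9 ± 4.69% in unfixed lists (SD, n = 2 each), and WOX11 at 100 ± 0 and 68.2 ± 24.2%. For both, the exact two-sided permutation p was 0.333, which is the smallest that 2 against 2 lists allow, and it became 1 after adjustment over all genes. The other 8 had p = 1.00 in the same exact test. In no gene of the genome was the unadjusted p under 0.05, since the design cannot reach it. Without unfixed replicate 1, which leaves unfixed replicate 2 alone in its group, the fixed values lay apart from the unfixed one in 7 of the 10. The same share over all genes was not computed, and unfixed replicate 2 had narrow domains throughout. This count therefore shows no trait particular to the WOX genes.

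The pooled endosperm reads gave a second measure that is independent of the domain calls' thresholds, though it comes from the same endosperm libraries. The level is the log2 of H3K27me3 over H3 reads in the gene body, both parents summed and each antibody scaled to its total. There are no replicates in this table, so the error after each ± is a counting standard error widened by a factor of 2.02, the extra spread seen between parts of unmarked genes. It covers no spread between libraries. A gene with at least 40 reads per antibody was called above H3 when the level was at least 2-fold (log2 1) and its 95% interval lay above 0. Of the 10 genes 9 had enough reads, and 7 of these were called above H3, against 8.84% of 19766 genes over the genome. None was called below H3, where 9.59% of genes were. With the 1 kb flanks in the window, all 10 genes had enough reads and 4 were called above H3. The share of all genes was not computed for that window.

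**Figure D3:**
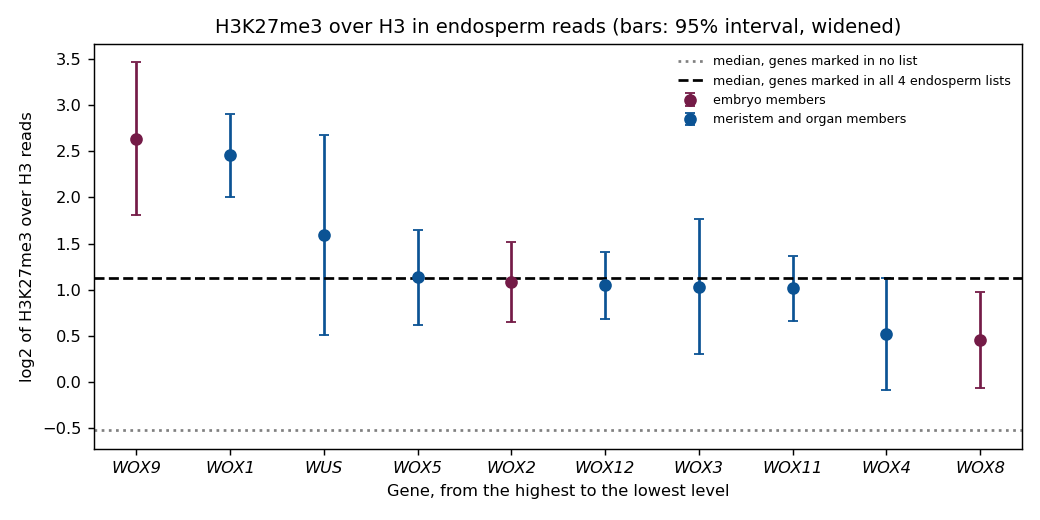
Level of H3K27me3 over H3 in pooled endosperm reads (y axis, log2) for the 10 genes from highest to lowest, with widened 95% intervals as bars; embryo genes in purple, the others in blue. WOX9 and WOX1 have their whole intervals above the median of genes marked in all 4 endosperm lists (dashed, 1.13), WUS and WOX5 their points only, and all 10 lie above the median of unmarked genes (dotted, -0.53).

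WOX9 had the highest level, 2.64 ± 0.42, from 521 H3K27me3 and 52 H3 reads. WOX1 followed at 2.45 ± 0.23, from 1543 and 176 reads. They stood at percentiles 99.95 and 99.87 of all genes with enough reads. They reached this in different ways. WOX1 had 110 H3K27me3 and 12.6 H3 reads per 150 bp bin, against 22.1 and 13.8 over all bins with reads. WOX9 had 37.2 and 3.71, so its H3 reads were few.

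A middle group stood near the median of 1.13 for genes marked in all 4 endosperm lists. It held WOX5 at 1.14 ± 0.26, WOX2 at 1.08 ± 0.22, WOX12 at 1.05 ± 0.19, WOX3 at 1.03 ± 0.37 and WOX11 at 1.02 ± 0.18. All 5 were called above H3, but 4 of them lay within 0.1 of the 2-fold limit. WUS was at 1.60 ± 0.55, with only 33 H3 reads, under the minimum. The last 2 were WOX4 at 0.52 ± 0.31 and WOX8 at 0.45 ± 0.27, which were not called.

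No neighbours in this order, WUS included, differed beyond their error (0 of 9 steps), while 14 of all 45 pairs did. WOX9 exceeded WOX8 by 2.19 ± 0.50 (95% interval 1.21 to 3.16), and WOX1 exceeded WOX4 by 1.94 ± 0.39 (1.18 to 2.69). The median level was 1.08 for the 3 embryo genes, with a range of 0.45 to 2.64, and 1.05 for the other 7, with a range of 0.52 to 2.45. Those 7 include WUS, which was under the read minimum, and the median of the 6 with enough reads was 1.04. The lowest and the highest of the 10 were thus both embryo genes.

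In the reads WOX8 lay closer to other genes than in the domains. WOX4, covered over 100% in all lists, differed from WOX8 in level by 0.07 ± 0.41 (-0.73 to 0.87), so a difference in level to go with the opposite domain calls was not detectable at this depth. RAC2, covered in endosperm over most of its body, had a level of 0.60 ± 0.18, only 0.15 ± 0.32 above WOX8 (-0.49 to 0.78). AT5G45990, on the other side, had 0.88 ± 0.28, or 0.43 ± 0.38 more (-0.32 to 1.18). AT5G46000, next to it, had a lower level than WOX8, -0.44 ± 0.50 from 74 and 63 reads, with a difference of -0.89 ± 0.56, an interval that also meets 0. The level of WOX8 itself was 0.98 above the median of unmarked genes, those that none of the 5 lists marked. The bare stretch over WOX8 was therefore a stretch without a called domain, and its level did not differ beyond the error from those of these 3 neighbours.

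Along WOX8 the level was 0.18 ± 0.35 in the lower flank, 0.33 ± 0.41 and 0.53 ± 0.35 in the lower and upper parts of the body, and 0.09 ± 0.42 in the higher flank. Along WOX1 it was 2.30 ± 0.53, 2.33 ± 0.50, 2.48 ± 0.26 and 2.24 ± 0.34 over the same segments. Along WOX4 it was 0.77 ± 0.57, 0.31 ± 0.38, 0.89 ± 0.53 and 1.81 ± 0.56. The level of WOX1 was thus high on all 4 segments and that of WOX8 lower on all 4. In WOX4 the highest value was that of the higher flank, within the errors of the upper part of the body.

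**Figure D4:**
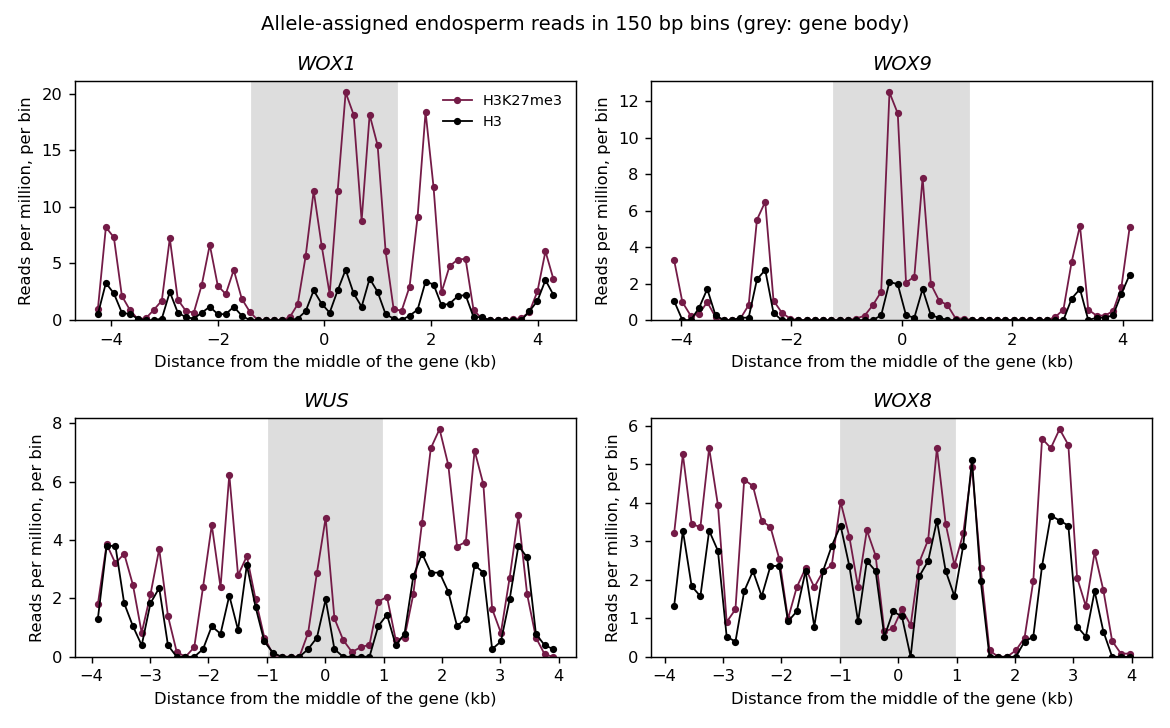
Allele-assigned endosperm reads per 150 bp bin (y axis, scaled to the total of each antibody) by distance from the middle of WOX1, WOX9, WUS and WOX8 (x axis, kb, gene body in grey). H3K27me3 stands well above H3 in the bodies of WOX1 and WOX9 and runs close to H3 over WOX8; bins at 0 for both antibodies hold no read that was assigned to a parent.

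Only reads that were assigned to a parent are in this table, and bins without any leave parts of some genes unseen. Of the 13 bins in WUS 10 held reads, and 1 bin held 36.0% of its H3K27me3 reads. In WOX9 14 of 16 bins held reads, the highest with 29.2%, and the 1 kb flanks of WOX9 held no H3 read. In WOX8 all 13 bins held reads.

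The parental ratio asks whether the mark was shared between the maternal (Col) and paternal (Ler) genomes as H3 was. It is the log2 of Col over Ler in H3K27me3 divided by Col over Ler in H3, given relative to the median of 0.91 for genes that no list marked. The errors are widened by 1.58. Over all bins, Ler made up 9.60% of H3K27me3 and 18.8% of H3 reads. The Col share of H3, 81.2%, was above the 66.7% that genome dosage alone gives, and how far mapping or maternal nuclei add to it was not tested. Of the 10 genes 8 had what the ratio needs, 40 reads for each antibody and, in H3, 10 from Ler. WOX9, with 9 Ler reads in H3, and WUS, with 8, did not.

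Of these 8, WOX11 was called toward Col and none was called toward Ler. Calls toward Col made up 8.28% of 17982 genes over the genome and calls toward Ler 3.04%, and among genes marked in all 4 endosperm lists the shares were 35.0% and 0.608%. WOX11 had 1041 Col and 64 Ler reads for H3K27me3 and 276 and 66 for H3. Its Ler share was 5.79% (95% Wilson interval 4.56 to 7.33) for H3K27me3 and 19.3% (15.5 to 23.8) for H3, intervals that cover counting error only. Its ratio was 1.05 ± 0.43 (0.21 to 1.89). The count toward Col depends on the settings, with 0 genes when the flanks are included and 5 without setting ratios relative to unmarked genes. Shares over all genes were not computed for these settings.

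WOX5 had a ratio of 1.04 ± 0.54, with an interval of -0.02 to 2.11 that met 0, and was not called. WOX2 stood at 0.56 ± 0.46, WOX1 at 0.53 ± 0.46 and WOX8 at 0.25 ± 0.59. WOX3 stood at -0.14 ± 0.76, WOX12 at -0.22 ± 0.42 and WOX4 at -0.33 ± 0.67. Intervals of these 6 all included 0. The median over the 8 was 0.39, against 0.94 for genes marked in all 4 endosperm lists and 0.16 for all genes. WOX12, with intervals as narrow as those of WOX11, lay on the other side of 0.

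**Figure D5:**
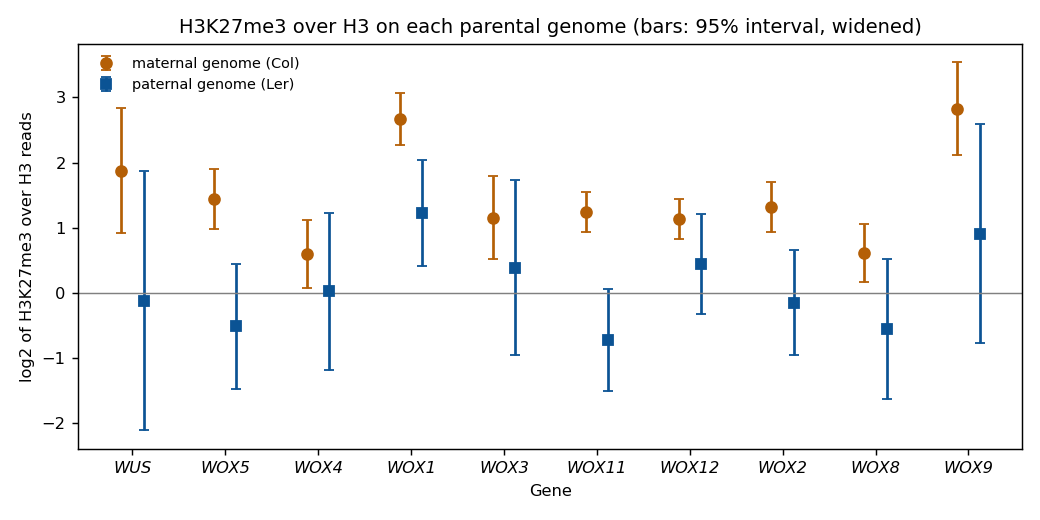
Level of H3K27me3 over H3 (y axis, log2, widened 95% intervals) on the maternal Col genome (circles) and the paternal Ler genome (squares) for each of the 10 genes. The Col point is the higher in all 10, and the Ler interval of WOX1 alone lies wholly above 0.

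Read on each genome by itself, the level of WOX1 was 2.66 ± 0.20 on Col and 1.22 ± 0.41 on Ler. That of WOX11 was 1.24 ± 0.15 on Col and -0.72 ± 0.40 on Ler. WOX12 stood at 1.13 ± 0.16 and 0.44 ± 0.39, and WOX8 at 0.61 ± 0.23 and -0.55 ± 0.55. The Col level was the higher in all 10 genes, as it was at the median of unmarked genes, to which the ratios above are set. WOX1 therefore carried the mark on both genomes.

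In the rest of the family, WOX7, the closest relative of WOX5, was covered over 100% in all 5 lists. WOX6, also called PRETTY FEW SEEDS 2, which acts in ovule development, was covered over 98.4, 86.6, 59.4 and 50.5% in endosperm and 52.1% in leaf. WOX10, WOX13 and WOX14, which form the oldest clade of the family, had no domain in the body or either 1 kb flank in any list. The level was 0.94 ± 0.35 for WOX7, 0.79 ± 0.36 for WOX6, -0.11 ± 0.53 for WOX10 and -0.18 ± 0.31 for WOX14, and WOX13 had no assigned read. By clade, all 8 genes of the WUS clade were marked in leaf and 6 in endosperm (8 without unfixed replicate 2). The intermediate clade (WOX8, WOX9, WOX11 and WOX12) had 4 of 4 in leaf and 2 in endosperm (3 without it), and the ancient clade 0 of 3.

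A list of 37 genes that act with WOX genes was read in the same way. Of these 8 were marked in endosperm (9 without unfixed replicate 2), 9 in leaf and 7 in both, where over all genes the shares were 11.9% (15.4% without it), 20.3% and 9.58%. A further 25 were marked in no list. That was the common case in the genome too, where 27.9% of genes were marked in at least 1 endosperm list and 2.94% in leaf only. Among the CLE peptide ligands, CLV3, the stem cell signal that represses WUS, was covered over 100, 100, 100 and 72.8% in endosperm and 100% in leaf. CLE41 and CLE44, which act upstream of WOX4 in the cambium, were also marked in both tissues, and CLE40 lay in no domain. CLV3 had a level of 1.92 ± 0.34, the highest among the listed genes with at least 40 reads per antibody.

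Of the 9 receptors 1 was marked in endosperm, near the 11.9% of all genes, and none in leaf, where 20.3% of all genes were. CLV2, a receptor-like protein of the CLV3 pathway, was covered over 100% in all 4 endosperm lists and over 10.8% in leaf, the only gene of the list marked in endosperm and not in leaf. Over all 27444 genes, 3262 were marked in endosperm and 2628 of them also in leaf. The endosperm domains on CLV2 were 10950 to 20250 bp wide, and each also covered at least 50% of AGL23 and of AT1G65370. In leaf the 1 kb flanks of CLV2 were covered over 60.9 and 100%. Its level was 1.26 ± 0.14 from 2141 H3K27me3 and 558 H3 reads, and its parental ratio of 1.49 ± 0.34 was called toward Col. The lowest levels among listed genes with enough reads belonged to the receptor kinases BAM1, at -1.70 ± 0.36, and ACR4, at -1.64 ± 0.32, and to HAM2, at -1.41 ± 0.27. HAM2 is a GRAS-domain partner of WUS, and none of the 9 HAM and TOPLESS partner genes was marked in any list. Over all genes, at least 1 endosperm list marked 27.9% and leaf marked 20.3%.

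Upstream of the WOX genes, SSP, the paternally acting kinase gene of the zygote pathway that leads to WOX8, was covered over 99.4, 100, 100 and 80.6% in endosperm and 100% in leaf. YDA, which acts after SSP, and WRKY2, which activates WOX8, lay in no domain on their bodies. AGO10, an Argonaute gene of the shoot meristem, named after its values were seen, was covered over 75.6, 68.3, 73.0 and 41.4% in endosperm and 0% in leaf. Among targets, AG, the floral homeotic gene that WUS activates, was covered over 57.9, 36.9, 21.1 and 0% in endosperm and 100% in leaf. HEC1, which WUS represses, was covered over 100, 95.5, 48.1 and 95.5% in endosperm and 59.2% in leaf, and its level of 2.05 ± 0.60 rested on only 27 H3 reads. LBD16 and LBD29, targets of WOX11, and YUC1, an auxin synthesis gene, were marked in both tissues.

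LBD16 had the next highest level after CLV3 among listed genes with enough reads, 1.48 ± 0.33, and its ratio of 3.23 ± 1.07 toward Col rested on 6 Ler reads in H3K27me3. Of the 26 listed genes with enough reads, 5 were called above H3 and 5 below, where over all genes 8.84% and 9.59% were, with a median level of -0.45, against -0.30 over all genes and 1.05 for the 9 WOX genes tested. Of 25 with enough reads for the parental ratio, 4 were called toward Col and 1 toward Ler, against 8.28% and 3.04% of all genes tested.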

How the data were processed

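The 10 genes and the lists were chosen with earlier results of these data known. Per the submitters' processing notes, the tools were Bowtie2, deepTools 2.0, Picard, SICER and Trim Galore and the build was TAIR10, with no step stated for any tool. The authors deposited 1 domain list per H3K27me3 library, with a log2 enrichment for each domain and a p-value (or q-value, since the sources used here do not say which) of at most 0.05. A further table deposited by the authors gives unnormalized whole-number counts of reads from Col and from Ler, for each antibody, in steps of 150 bp. Its columns carry no replicate, so the count model planned for per-library columns was not fitted; nor is it stated how reads were assigned to a parent, or whether 1 read can enter several bins. The files do not show the depth of single libraries. The table held 12189039 H3K27me3 and 7638577 H3 reads on nuclear chromosomes.

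Genes were placed by the TAIR10.1 annotation, taken to share coordinates with TAIR10. It gave no strand, so flanks are named by coordinate, and no sequence was used here. All 10 genes and 37 of 38 pathway entries were matched by locus. All 10 are named, with the 5 other WOX genes; pathway genes are named where marked in 1 tissue only or among the 3 highest or lowest levels, and others as context. Bins were assigned by midpoint and 0.5 was added to each count. Levels and ratios were called at 2-fold with a 95% interval beyond 0. Widening factors came from 10402 genes (level) and 8937 genes (parental ratio). On simulated counts, with 200 genes moved by log2 2, 97.5% of them were recovered for the level among 19766 genes, and 67.0% for the parental ratio among 17982 genes. Of unchanged genes about 0.597% and 3.07% were called. When the genes were moved by log2 1.5, 92.0% were recovered for the level and 54.0% for the parental ratio. Recovery of smaller moves, nearer the 2-fold limit, was not simulated. Fixed and unfixed lists were compared by an exact two-sided permutation test with Benjamini-Hochberg adjustment. Alternatives covered the domain and cover thresholds, the window, the pseudocount, the read minimum, centring, the error and leaving out each list. Python 3.11.15, numpy 2.4.6, pandas 2.3.3 and scipy 1.17.1 were used. The IgG, leaf H3, and seed coat and embryo libraries were not analysed here.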

Additional observations from a re-analysis of the deposited data

Results flagged for a closer look

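In 6 of the 10 genes, cover in 1 of the 4 endosperm lists lay farther from the rest than Dixon's 95% critical value for 4 samples allows. In each of them the other 3 lists held the same value, at the ceiling, at the floor or at 79.99%, so any distance at all passes and the usual rate of 1 in 20 does not apply. Over the genome, 49.1% of the 9596 genes whose cover differed between endosperm lists passed, and 42.9% had 3 identical lists. WOX1 and WOX4 stood at 100% in all 4 endosperm lists. They count among the 10 but have no counterpart in that genome share. In 5 of the 6 the list was unfixed replicate 2, which had narrower domains over the whole genome. The values there were 38.7% for WOX2, 38.6% for WUS, 20.7% for WOX12, 75.02% for WOX5 and 94.0% for WOX9. Of all genes marked in the other 3 endosperm lists, 22.9% fell under 50% in unfixed replicate 2, and of the 9 WOX genes marked in those lists 3 did (WUS, WOX2 and WOX12). The sixth value is that of WOX8 in fixed replicate 1, at 30.0% where the other 3 lists held 0%, because a domain on its higher-coordinate side began inside the gene in that list.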

How the results depend on the processing

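The count of 10 genes marked in leaf was the same under every alternative run. The count of 6 marked in endosperm became 3 with a cover of at least 80%, was 5 to 9 under the others, and ranged from 6 to 9 when 1 list was left out, 9 being the value without unfixed replicate 2. The pathway count of 8 became 3 at 80%, and without unfixed replicate 2 (chosen after seeing the data) it was 9. Apart from leaving out unfixed replicate 2, shares over all genes were not computed for the alternatives of these endosperm counts. The difference between embryo and other genes, -2.77 points, became 4.92 with flanks and -24.3 by means, and ranged from -12.1 to 0 with 1 list left out. The 2 genes with no overlap between fixed and unfixed lists ranged from 2 to 7 with 1 list left out, 7 being the value without unfixed replicate 1, which leaves unfixed replicate 2 alone. Shares over all genes with 1 list left out were not computed for this count. With a replicate block the count stayed at 2, with an exact p of 0.5, the smallest it allows. Deviations of same-numbered lists had a correlation of -0.03 over 10504 genes, so the numbers were not taken to pair the lists.

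The count of 7 above H3 became 4 with flanks and was 5 to 8 otherwise. The single call toward Col became 0 with flanks, 2 with at least 100 reads, 5 without centring, 0 with the overall ratio of each antibody removed, and 2 without widening. For the alternatives of both counts, shares over all genes were not computed. The parental ratio changed sign for WOX3 (0.35 with flanks, 0.76 without centring), WOX4 (0.58 without centring) and WOX12 (0.12 with flanks, 0.69 without centring). The cause of these changes was not tested. Of the values of single genes, 76 kept direction and call, 6 gained and 6 lost a call, and 5 reversed. Few Ler reads limit the parental ratio, and pooled columns leave the spread between libraries unknown for every read-based value.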

Other observations

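Genes were ranked by likeness to each WOX gene, as the mean absolute difference in cover over 15 values (5 lists by body and both flanks). None of the 3 nearest to any of the 10 was a WOX gene. WOX1, covered over 100% throughout, was tied with 76 genes at a difference of 0. WOX2 was nearest to RALFL20, which encodes a RALF-like peptide, with a mean difference of 0.213 points, and 36 genes lay within 5 points. WOX9 was nearest to AT1G21313 at 0.852 points and WUS to TPS03, a terpene synthase gene, at 4.05 points. For WOX3, WOX5, WOX8 and WOX12 no gene lay within 5 points. The nearest to WOX3 lay at 5.30 points and the nearest to WOX5 at 6.499 points. The nearest to WOX8 was AT3G49300 at 5.81 points, with 30.5, 0, 0 and 0% of its body covered in endosperm and 100% in leaf. CYP94D1 followed at 8.32 points and SS3 at 8.76 points. WOX12 was the least matched, with its nearest gene at 12.0 points.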
